A study of Mus musculus with 8 samples.

Results

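Creatine kinase and its partners move phosphate-bound energy from mitochondria to the contractile apparatus of the heart, and 9 genes of this system were examined in the left ventricle of mice after sham surgery or pressure overload on 2 diets. The genes were taken by symbol from the deposited table: Ckm, Ckb, Ckmt2, Slc6a8, Gamt, Ak1, Slc25a4, Slc25a5 and Slc25a3. Each symbol matched 1 of the 49671 genes listed, and all 9 passed the filter on low values, which asked for 1 or more in at least 2 libraries and left 16432 genes.

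In cardiomyocytes, mitochondrial creatine kinase at the inner membrane uses ATP to phosphorylate creatine, and cytosolic creatine kinase at the myofibrils turns phosphocreatine back into ATP. Creatine is taken up from the blood by a transporter, since heart muscle makes little of it. Adenine nucleotide translocases carry ADP and ATP across the inner mitochondrial membrane, the phosphate carrier brings in phosphate for ATP synthase, and adenylate kinase recovers ATP from pairs of ADP molecules.

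All mice were C57BL/6N males, 8 weeks old at the start, and RNA was taken from the left ventricle 4 weeks after surgery. The operation was either sham surgery or transverse aortic constriction (TAC), which narrows the aorta and loads the left ventricle with pressure. The food was either a low-fat diet (SFA) or its counterpart SFA-EAA, where free essential amino acids stood in for 93.5% of the casein, so that no group received a standard chow. The question was how the amino acid diet alters the ventricle with and without overload. The groups of sham and TAC mice on SFA and on SFA-EAA, 4 in all, held 2 libraries each, called replicate 1 and replicate 2. Whether these were 2 animals is not stated in the labels. A p-value here thus reflects how far such libraries lie apart, and that distance may be technical.

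The deposited normalized values of a library summed to between 5136441 and 6298743, and the 9 genes together made up 0.93% to 1.36% of a library. All 12 cardiomyocyte markers examined had a value of at least 1 in every library, with a summed value of 328800 to 430200. Of the 8 atrial markers, Bmp10 was listed at 0 throughout. Their sum ran from 1169 to 21920, highest in TAC SFA, where Nppa, which also rises in overloaded ventricle, was the only one called as deposited, while 5 of the 7 tested had negative estimates for TAC under SFA (median -0.46). Of the 12 skeletal muscle markers, Myh1, Myh2, Myh4 and Myod1 were listed at 0 in all libraries and 3 reached 1 in all. Their sum was 151 to 198 in SFA and 67.3 to 122 in SFA-EAA libraries, and Casq1 was called lower on SFA-EAA averaged over operations. A single skeletal muscle marker reached 185, close to the highest sum. Of the 6 tested, 4 had negative and 2 positive estimates in that comparison (median -0.13). GC-corrected, 1 was negative and 5 were positive (median 0.12). For diet after sham, 2 were negative and 4 positive as deposited. In bulk tissue, fewer cells of a type and less RNA per cell cannot be told apart.

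Libraries also differed in base composition. Across 10221 genes, each gene's deviation from its own mean was compared with the GC content of its longest transcript. The Spearman correlation was 0.49 and 0.52 in sham SFA, 0.34 and 0.46 in TAC SFA, and -0.62 and -0.43 in sham SFA-EAA. In TAC SFA-EAA it was 0.43 in replicate 1 and -0.73 in replicate 2. By GC trend, replicate 1 of TAC SFA-EAA thus stood with the SFA libraries and apart from the other 3 SFA-EAA libraries. In 2 other measures it lay outside the SFA libraries. Mitochondrially encoded genes took 33.6% of its values (22.1% to 30.3% in SFA), and 15844 genes reached 1 (14202 to 14776 in SFA). The labels were used as given, and whether this library is labelled as it was made was not tested. Many results that rest on TAC SFA-EAA are therefore also given without replicate 1 and without replicate 2. Many are also given with the GC trend of each library removed ("GC-corrected"). A fit without 1 of these replicates holds 1 library of TAC SFA-EAA, so that group adds nothing to the estimated spread. Adjusted p-values and calls from such a fit do not reflect how far the 2 libraries of that group lie apart.

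The coding sequences show how closely the isoforms resemble each other and where they differ in G and C. Ckm and Ckb are both 1143 coding bases long and shared 75.9% of them, position by position. The stretch below was chosen as the window of 60 bases with the most positions shared by all 3 creatine kinases. It is given 5′ to 3′ as coding strand from the GENCODE M21 transcripts (GRCm38), at coding bases 535 to 594 of Ckm and Ckb and 637 to 696 of Ckmt2. Capitals mark the 14 of 60 positions that are not the same in all 3.
Ckm: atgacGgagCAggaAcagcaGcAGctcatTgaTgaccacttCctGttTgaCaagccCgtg
Ckb: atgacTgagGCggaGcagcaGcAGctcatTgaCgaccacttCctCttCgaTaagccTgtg
Ckmt2: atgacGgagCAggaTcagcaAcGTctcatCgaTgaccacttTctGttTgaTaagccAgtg
Of the 14 differing positions, 11 are the last base of a codon. G or C stands at 8 of the 14 in Ckm, 9 in Ckb and 5 in Ckmt2. Over the whole coding sequence, G or C took 81.6% of last codon positions in Ckm, 78.7% in Ckb and 58.5% in Ckmt2. At last codon positions the cytosolic isoforms thus stand together and Ckmt2 apart. Over the longest transcript of each gene, the measure used for the GC trend, Ckm (54.0% GC) lies nearer to Ckmt2 (50.5%) than to Ckb (61.7%). Over all coding bases it lies nearer to Ckb (59.0% in Ckm, 59.9% in Ckb, 52.3% in Ckmt2). Slc25a3 has 43.6% over its longest transcript and 51.7% over its coding bases. How the GC-corrected values depend on the measure chosen was not tested.

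The 2 adenine nucleotide translocases, each 894 coding bases long, were identical at 77.4% of them. Coding bases 64 to 123, again chosen as the window with the most identical positions (54 of 60), are given in the same way. Capitals stand at the 6 positions that differ, each the last base of a codon.
Slc25a4: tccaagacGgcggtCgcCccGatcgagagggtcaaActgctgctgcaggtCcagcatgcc
Slc25a5: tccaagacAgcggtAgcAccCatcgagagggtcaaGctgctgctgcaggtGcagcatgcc
G or C stands at 5 of the 6 in Slc25a4 and at 3 of the 6 in Slc25a5.

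Divided by exon length, the mean level over the 8 libraries was highest for Slc25a4 (13600 per kb), the muscle form of the translocase, followed by Ckmt2 (10150 per kb) and Ckm (3171 per kb). Slc25a3 (1400 per kb), Ak1 (1080 per kb) and Slc25a5 (875 per kb) came next, and then Slc6a8 (218 per kb), Ckb (120 per kb) and Gamt (9.82 per kb). The muscle isoforms of the kinase and the translocase thus stood far above Ckb and Slc25a5, the forms common in other tissues. The exon lengths came with the deposited values and can exceed the transcript that is expressed. They were 5550 bases for Slc25a3 (1074 coding), 2913 for Ckm (1143 coding) and 1486 for Ckmt2 (1257 coding). How far the order of levels depends on these lengths was not tested. The library ranges of Slc25a4 and Ckmt2 met (10576 to 16609 against 7999 to 11577 per kb), as did those of Ckm and Slc25a3, Slc25a3 and Ak1, Ak1 and Slc25a5, and Slc6a8 and Ckb, while those of Ckmt2 and Ckm, Slc25a5 and Slc6a8, and Ckb and Gamt did not.

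**Figure D1:**
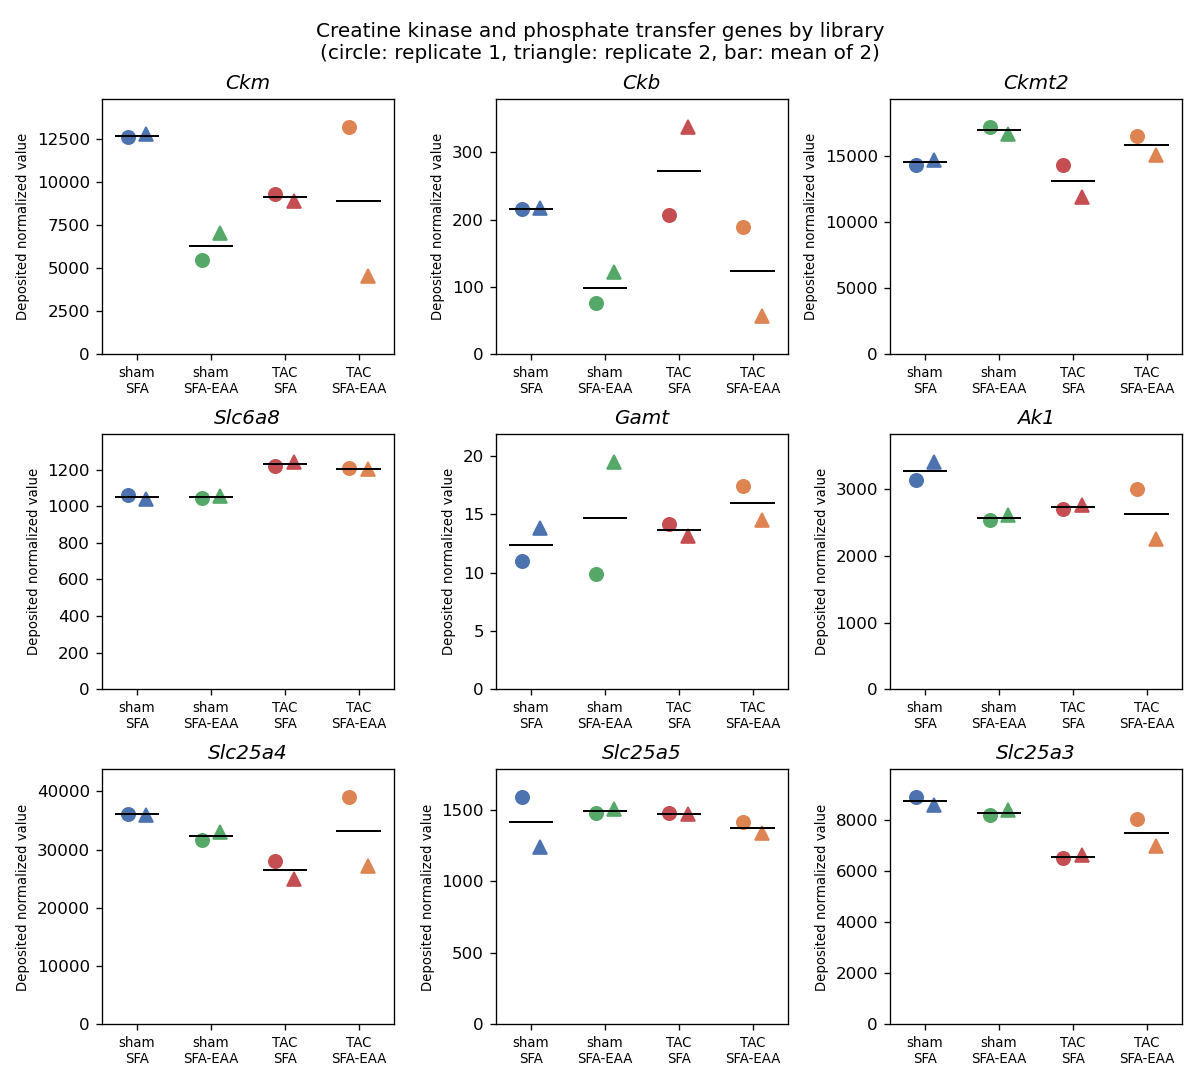
Deposited normalized value (vertical axis, linear from 0) of each of the 9 genes in the 8 libraries, by group on the horizontal axis. Circles are replicate 1, triangles replicate 2 and bars the mean of the 2. Slc6a8 lies higher in all 4 TAC libraries than in all 4 sham libraries, and the TAC SFA-EAA replicates differ widely for Ckm (13216 and 4541).

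Ckm, the muscle creatine kinase of the cytosol (ENSMUSG00000030399, chr7:19404776-19422841, plus strand), had values of 12595 and 12764 in sham SFA, 5467 and 7058 in sham SFA-EAA, 9329 and 8928 in TAC SFA, and 13216 and 4541 in TAC SFA-EAA. Both sham SFA libraries lay above both of sham SFA-EAA and both of TAC SFA, while TAC SFA-EAA held both the highest and the lowest value. On the amino acid diet after sham surgery Ckm was 2.04-fold lower (log2 fold change -1.03, SE 0.39, 95% CI -1.91 to -0.15), which missed the threshold over all genes (limma adjusted p = 0.297). With TAC SFA-EAA left out in part, the same difference passed (adjusted p = 0.00449 without replicate 1, 0.00416 without replicate 2), as it did in a fit of only the 4 sham libraries (adjusted p = 0.0196). GC-corrected, over all 8 libraries, it was -0.82 (adjusted p = 0.335).

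Under SFA, Ckm was 1.39-fold lower after TAC than after sham (log2 fold change -0.47, SE 0.39, limma adjusted p = 0.697, and 0.0251 in a fit of the 4 SFA libraries). Under SFA-EAA the TAC difference was 0.32 (SE 0.39, adjusted p = 0.872), and its sign rested on 1 library. It was -0.45 without replicate 1 of TAC SFA-EAA and 1.09 without replicate 2, each with 1 library left in that group. The diet difference after TAC likewise went from -0.24 (adjusted p = 0.81) to -1.01 and 0.53. The TAC effects under the 2 diets differed by 0.79 (SE 0.55, adjusted p = 0.913), by 0.02 without replicate 1 and by 1.56 without replicate 2. GC-corrected over all 8 libraries, these 3 values were 0.28, -0.03 and 0.79 (adjusted p = 0.781, 0.976 and 0.65).

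Ckb, the brain-type cytosolic isoform (ENSMUSG00000001270, chr12:111669355-111672338, minus strand), had values of 216 and 217 in sham SFA, 75.5 and 123 in sham SFA-EAA, 208 and 338 in TAC SFA, and 189.6 and 56.7 in TAC SFA-EAA. All 4 SFA-EAA libraries lay below all 4 SFA libraries. Averaged over both operations, Ckb was 2.38-fold lower on SFA-EAA (log2 fold change -1.25, SE 0.34, 95% CI -2.03 to -0.48, limma adjusted p = 0.088). It was -1.68 without TAC SFA-EAA replicate 1 and -0.82 without replicate 2. GC-corrected, the difference was -0.50 (adjusted p = 0.124). The parts of this average were -1.16 after sham (adjusted p = 0.325, or -0.31 and 0.662 GC-corrected) and -1.34 after TAC (adjusted p = 0.253, or -0.69 and 0.153 GC-corrected). After TAC it was -2.20 without replicate 1 and -0.48 without replicate 2. TAC against sham under SFA gave 0.29 (SE 0.48, adjusted p = 0.87).

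Ckmt2, the sarcomeric mitochondrial creatine kinase (ENSMUSG00000021622, chr13:91853387-91876885, minus strand), had values of 14317.5 and 14673 in sham SFA, 17203.5 and 16634 in sham SFA-EAA, 14340.0 and 11886 in TAC SFA, and 16494 and 15094 in TAC SFA-EAA. All 4 SFA-EAA libraries lay above all 4 SFA libraries, the opposite order to Ckb. The diet difference averaged over operations was 1.19-fold (log2 fold change 0.25, SE 0.10, 95% CI 0.02 to 0.48), with limma adjusted p = 0.19, and it was 0.32 (adjusted p = 0.0803) GC-corrected. It was 0.22 without TAC SFA-EAA replicate 1 and 0.28 without replicate 2. The TAC difference of Ckmt2 was -0.15 under SFA (SE 0.15, adjusted p = 0.743) and -0.10 under SFA-EAA (SE 0.15, adjusted p = 0.892, with -0.16 and -0.04 without replicate 1 or 2 and -0.13 GC-corrected). Ckm overlaps the antisense gene A930016O22Rik (at most 6.4 in a library) and Ckmt2 overlaps 1700119I11Rik (at most 1.2), and the pseudogenes Ckb-ps1 and Ckb-ps2 were listed at 0.

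Ratios between isoforms do not depend on the scaling of a library. Ckmt2 stood to Ckm, per deposited value, at 1.14 and 1.15 in sham SFA, 3.15 and 2.36 in sham SFA-EAA, 1.54 and 1.33 in TAC SFA, and 1.25 and 3.32 in TAC SFA-EAA. The 3 highest ratios came from SFA-EAA libraries, and the 4th SFA-EAA library, TAC replicate 1, lay among the SFA libraries. On SFA-EAA the ratio was 1.84-fold higher (log2 0.88, mean 1.24 ± 0.65 SD against 0.35 ± 0.21 SD, n = 4 libraries each), with p = 0.167 in a two-sided exact permutation test within each operation and 0.5 after Benjamini-Hochberg adjustment over 6 ratio tests. The 36 arrangements of that test cannot give a p below 0.0556. Without TAC SFA-EAA replicate 1 the log2 difference was 1.23 and the exact permutation p = 0.0556, and without replicate 2 they were 0.53 and 0.278. As a share of the 3 creatine kinases per exon length, Ckmt2 held 68.3% to 86.4%, Ckm 13.3% to 30.7% and Ckb 0.327% to 2.03%. These shares depend on the exon lengths used.

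The ratio of Ckb to Ckm was 0.65-fold as high on SFA-EAA as on SFA (log2 -0.62, exact permutation p = 0.167, adjusted 0.5) and -0.08 on the log2 scale after GC correction (exact permutation p = 0.778). Between TAC and sham it differed by 0.28 (exact permutation p = 0.5, adjusted 0.75). For Ckmt2 to Ckm the TAC difference was -0.05 (exact permutation p = 1). The Slc25a5 share of the 2 translocases ranged from 4.70% to 7.79% per exon length, with the 2 highest shares in TAC SFA (7.03% and 7.79%). Its log2 ratio to Slc25a4 differed by 0.19 between TAC and sham (exact permutation p = 0.333, adjusted 0.667) and by -0.08 between diets (exact permutation p = 0.667, adjusted 0.8). None of the 6 ratio differences passed, and none could have at this number of libraries.

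**Figure D2:**
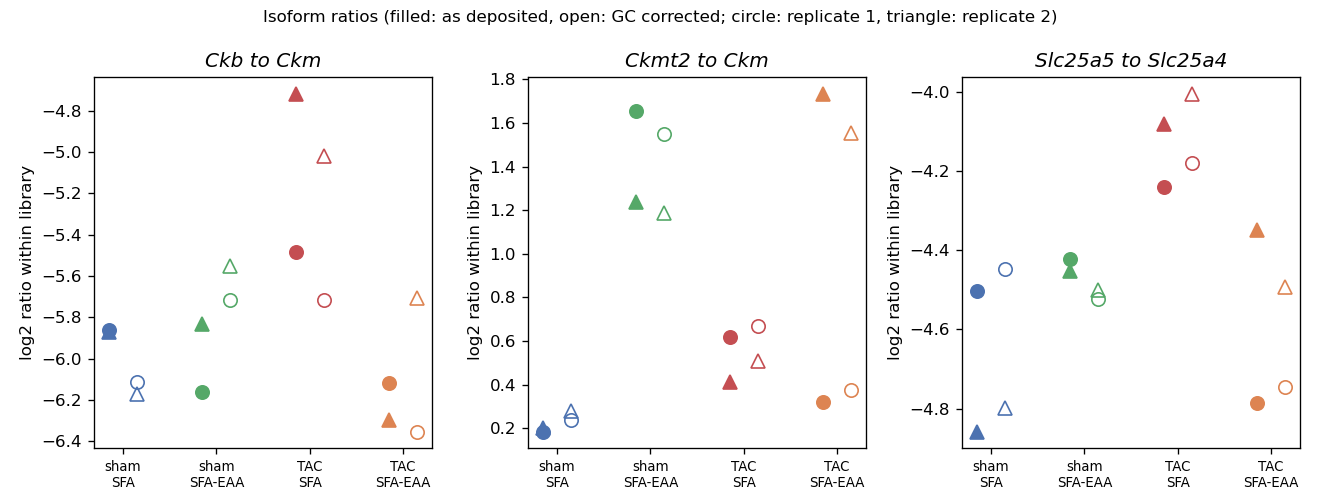
Log2 ratio of the deposited values (value + 1) of 2 isoforms within each library, by group, for Ckb to Ckm, Ckmt2 to Ckm and Slc25a5 to Slc25a4. Filled symbols are as deposited, open symbols GC-corrected, circles replicate 1 and triangles replicate 2. For Ckmt2 to Ckm, replicate 2 of TAC SFA-EAA and the 2 libraries of sham SFA-EAA lie above the rest with and without the correction.

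Slc6a8, the creatine transporter of the cell surface (ENSMUSG00000019558, chrX:73673150-73682502, plus strand), had values of 1062 and 1038 in sham SFA, 1042 and 1056 in sham SFA-EAA, 1217 and 1243 in TAC SFA, and 1208 and 1201 in TAC SFA-EAA. Replicates differed by 1.023-fold or less in every group, and all 4 TAC libraries lay above all 4 sham libraries. Averaged over diets the TAC difference was 1.16-fold (log2 fold change 0.21, SE 0.07, 95% CI 0.06 to 0.37, unadjusted p = 0.0134), and the limma adjusted p was 0.177. It was 0.23 under SFA (SE 0.10, adjusted p = 0.36) and 0.20 under SFA-EAA (SE 0.10, adjusted p = 0.618, with 0.20 without either replicate and 0.09 GC-corrected). Without TAC SFA-EAA replicate 1 or 2 the average was 0.21 and 0.22.

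The GC-corrected TAC difference of Slc6a8 was smaller, 0.13 (adjusted p = 0.514), and it was 0.27 and 0.00 when replicate 1 or 2 of TAC SFA-EAA was also left out. Its diet difference was -0.02 (SE 0.07, adjusted p = 0.912) as deposited, with -0.02 and -0.01 without replicate 1 or 2, and 0.38 (adjusted p = 0.0625) GC-corrected. GC-corrected, it was 0.52 without TAC SFA-EAA replicate 1 and 0.25 without replicate 2. At 56.8% GC, Slc6a8 sits at percentile 86.8 of 16394 tested genes. The closeness of its levels between diets therefore depends on whether that trend is removed.

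Gamt, which makes creatine from guanidinoacetate (ENSMUSG00000020150, chr10:80258151-80261012, minus strand), was low in all libraries, at 11 and 13.8 in sham SFA, 9.9 and 19.5 in sham SFA-EAA, 14.2 and 13.1 in TAC SFA, and 17.4 and 14.5 in TAC SFA-EAA. The 2 sham SFA-EAA libraries enclosed all others, and the difference after TAC under SFA was 0.14 (SE 0.40, 95% CI -0.77 to 1.04, limma adjusted p = 0.936).

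Ak1, the cytosolic adenylate kinase of muscle (ENSMUSG00000026817, chr2:32621758-32635058, plus strand), had values of 3137 and 3407 in sham SFA, 2529.8 and 2607 in sham SFA-EAA, 2703 and 2765 in TAC SFA, and 2992 and 2256 in TAC SFA-EAA. Sham SFA was the highest group, above both sham SFA-EAA and TAC SFA without overlap. After sham surgery Ak1 was 1.27-fold lower on SFA-EAA (log2 fold change -0.35, SE 0.14, 95% CI -0.67 to -0.03, limma adjusted p = 0.315), and it passed without TAC SFA-EAA replicate 1 (adjusted p = 0.037) or 2 (adjusted p = 0.0375). GC-corrected, the difference was -0.11 (adjusted p = 0.7). Under SFA it was 1.2-fold lower after TAC (-0.26, SE 0.14, adjusted p = 0.493), and here the GC-corrected value was as large (-0.28, adjusted p = 0.104).

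Slc25a4, the muscle adenine nucleotide translocase (ENSMUSG00000031633, chr8:46206797-46211284, minus strand), had values of 36127 and 35927 in sham SFA, 31687 and 33045 in sham SFA-EAA, 27981 and 24885 in TAC SFA, and 39080.5 and 27247 in TAC SFA-EAA. Both TAC SFA libraries lay below all 4 sham libraries, and replicate 1 of TAC SFA-EAA was the highest of all. Under SFA the value was 1.36-fold lower after TAC (log2 fold change -0.45, SE 0.20, 95% CI -0.90 to -0.00, limma adjusted p = 0.374). GC-corrected it was -0.50 (adjusted p = 0.0874), and it then passed without TAC SFA-EAA replicate 1 (adjusted p = 0.0151) or 2 (adjusted p = 0.017). Averaged over diets it was -0.22 (SE 0.14, adjusted p = 0.528), with -0.35 without replicate 1 and -0.09 without replicate 2. The TAC effects differed between diets by 0.46 (SE 0.28, adjusted p = 0.909), by 0.20 and 0.72 without replicate 1 or 2, and by 0.46 GC-corrected. The diet difference after sham was -0.15 (SE 0.20, adjusted p = 0.731).

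Slc25a3, the mitochondrial phosphate carrier (ENSMUSG00000061904, chr10:91116574-91124059, minus strand), had values of 8903 and 8596.5 in sham SFA, 8190.4 and 8368 in sham SFA-EAA, 6500.1 and 6612 in TAC SFA, and 8013.5 and 6971 in TAC SFA-EAA. All 4 TAC libraries lay below all 4 sham libraries, with TAC SFA the lowest group. Under SFA it was 1.33-fold lower after TAC (log2 fold change -0.42, SE 0.12, 95% CI -0.69 to -0.14), with an unadjusted p of 0.00792 and a limma adjusted p of 0.162. It passed without TAC SFA-EAA replicate 1 (adjusted p = 0.0245) or 2 (adjusted p = 0.0262), when libraries were weighted by their spread (0.0432) and among the 4 SFA libraries alone (0.0326). Here the GC-corrected value was about the same (-0.43, adjusted p = 0.0976).

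Under SFA-EAA the TAC difference of Slc25a3 was -0.15 (SE 0.12, adjusted p = 0.817, with -0.25 and -0.05 without replicate 1 or 2 and -0.09 GC-corrected), and averaged over diets it was -0.28 (SE 0.09, limma adjusted p = 0.155). The average was -0.33 without TAC SFA-EAA replicate 1 and -0.23 without replicate 2. Its diet difference was -0.08 after sham (adjusted p = 0.784) and 0.19 after TAC (adjusted p = 0.494, with 0.09 and 0.29 without replicate 1 or 2 and 0.06 GC-corrected). The small RNA gene Gm24119, which lies within Slc25a3, had at most 3.4 in a library.

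Slc25a5, the translocase of most non-muscle cells (ENSMUSG00000016319, chrX:36795651-36798807, plus strand), had values of 1593 and 1238 in sham SFA, 1478 and 1508 in sham SFA-EAA, 1479 and 1470.0 in TAC SFA, and 1416 and 1336 in TAC SFA-EAA. The 2 sham SFA libraries enclosed all others. After TAC the difference was 0.07 under SFA (SE 0.13, limma adjusted p = 0.888) and -0.12 under SFA-EAA (SE 0.13, adjusted p = 0.867, with -0.16 and -0.08 without replicate 1 or 2 and -0.15 GC-corrected). The pseudogene Slc25a5-ps was listed at 0.

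Counted over the comparisons, none of the 9 genes passed an adjusted p of 0.05 in the fit of all 8 libraries as deposited. The share of all tested genes that passed was 1.25% for TAC against sham under SFA, 0.0122% under SFA-EAA, 0% for diet after sham, 0.0487% for diet after TAC, 0% for the difference of the TAC effects, 2.11% for TAC averaged over diets and 1.21% for diet averaged over operations. At an unadjusted p under 0.05 stood 3 genes for TAC under SFA (Slc6a8, Slc25a4, Slc25a3; 13.4% of all genes), 3 for diet after sham (Ckm, Ckb, Ak1; 14.8%) and 1 for diet after TAC (Ckb; 15.1%). For TAC averaged over diets there were 2 (Slc6a8, Slc25a3; 15.3%) and for diet averaged over operations 3 (Ckm, Ckb, Ckmt2; 23.2%). Under SFA-EAA no TAC difference reached it (8.57% of all genes), nor did a difference of the TAC effects (5.49%). The median log2 fold change of the 9 genes was -0.15 for TAC under SFA and 0.02 under SFA-EAA, beside 0.01 and 3.83e-05 over all genes.

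Leaving out 1 replicate of TAC SFA-EAA let more genes pass, among these 9 and among all. That group is then 1 library, so calls for comparisons with it rest on that library. Without replicate 1, limma called Slc25a3 for TAC under SFA (5.29% of all genes called), Ckm, Ckb and Ak1 for diet after sham (7.3%), Ckm and Ckb for diet after TAC (13.3%), Ckm and Slc25a3 for TAC averaged over diets (6.61%), and Ckm, Ckb and Ak1 for diet averaged over operations (22.4%). None was called then for TAC under SFA-EAA (0.163%) or the difference of the TAC effects (0%). Without replicate 2 it called Slc25a3 for TAC under SFA (5.15%), Ckm for TAC under SFA-EAA (1.67%), Ckm, Ckb and Ak1 for diet after sham (7.24%) and Ckm for the difference of the TAC effects (0.865%). None was called for diet after TAC (0.317%), TAC averaged over diets (5.62%) or diet averaged over operations (3.79%). Among the 4 libraries of a comparison alone, Ckm and Slc25a3 were called for TAC under SFA (5.6% of all genes) and Ckm, Ckb and Ak1 for diet after sham (6.45%).

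With library weights, Slc25a3 was called for TAC under SFA (4.43% of all genes called), Ckm for diet after sham (3.6%) and Ckb for diet averaged over operations (4.1%). GC-corrected without replicate 1 of TAC SFA-EAA, the calls were Ckm, Slc25a4 and Slc25a3 for TAC under SFA (7.72%), Ckm and Slc6a8 for diet after sham (1.24%), Ckm, Ckb and Slc6a8 for diet after TAC (3.4%), Ckm, Slc6a8, Slc25a4 and Slc25a3 for TAC averaged over diets (8.4%), and Ckm, Ckb and Slc6a8 for diet averaged over operations (6.73%). None was called for TAC under SFA-EAA (0.675%) or the difference of the TAC effects (0.00625%). GC-corrected without replicate 2, they were Ckm, Slc25a4 and Slc25a3 for TAC under SFA (7.59%), Ckm for TAC under SFA-EAA (0.56%), Ckm and Slc6a8 for diet after sham (1.28%), Ckm and Slc25a4 for diet after TAC (1.61%) and Ckm for the difference of the TAC effects (0.685%). None was called for TAC averaged over diets (6.2%) or diet averaged over operations (2.74%). Ckm for diet after TAC was lower on SFA-EAA in the first of these settings and higher in the second.

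Groups whose libraries did not overlap were frequent with 2 libraries each. For TAC under SFA, 1 gene was higher (Slc6a8; 24.3% of all genes) and 4 were lower (Ckm, Ak1, Slc25a4, Slc25a3; 23.1%). For TAC under SFA-EAA, Slc6a8 was higher (18.5%) and Ckmt2, Slc25a5 and Slc25a3 were lower (18%). For diet after sham, Ckmt2 was higher (27.6%) and Ckm, Ckb, Ak1, Slc25a4 and Slc25a3 were lower (27.6%). For diet after TAC, Ckmt2, Gamt and Slc25a3 were higher (21.7%) and Ckb, Slc6a8 and Slc25a5 lower (21.1%). Over all 4 against 4 libraries, TAC stood apart for Slc6a8 (higher; 3.73% of all genes) and Slc25a3 (lower; 2.75%), and diet for Ckmt2 (higher; 5.41%) and Ckb (lower; 4.92%). Comparisons that share a group are not independent.

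Other measures of the libraries moved with the same groups. The summed cardiomyocyte markers (12 of 12 detected) were 423500 to 430200 in sham SFA, 362100 to 393400 in TAC SFA, 347900 to 368400 in sham SFA-EAA and 328800 to 428400 in TAC SFA-EAA. The 10 fibroblast markers summed to 11220 to 16310 in TAC SFA and to 4897 to 7313 in the other 3 groups. The 10 macrophage markers (all at 1 or more in every library) summed to 1809 to 2264 in TAC and 1193 to 1731 in sham libraries, and the 8 Schwann cell and nerve markers (4 at 1 or more in every library) to 37.9 to 52.9 and 73.6 to 112, so both lists parted TAC from sham libraries as Slc6a8 and Slc25a3 did. Mitochondrially encoded genes took 33.6% to 39.5% of the values in SFA-EAA libraries and 22.1% to 30.3% in SFA libraries. The part of these measures in the differences of the 9 genes was not tested.

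**Figure D3:**
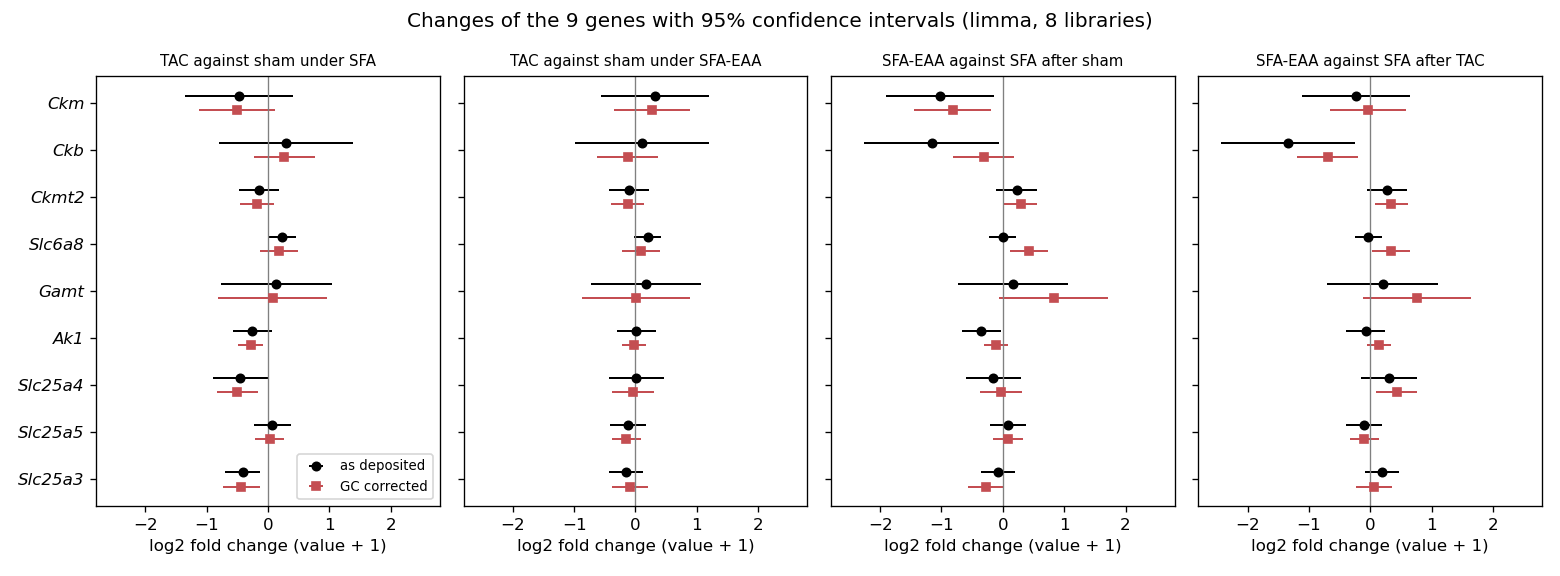
Log2 fold change of the 9 genes (horizontal axis, from limma on log2(value + 1)) with 95% confidence intervals, in 4 comparisons. Black circles are as deposited and red squares GC-corrected. Ckb after sham surgery moves from -1.16 to -0.31 with the correction, while Slc25a3 under SFA stays at -0.42 and -0.43.

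The 3 libraries with negative GC trends (both of sham SFA-EAA and TAC SFA-EAA replicate 2) were also the 3 lowest for Ckm, Ckb and Ak1. The longest transcripts of these genes hold 54.0%, 61.7% and 54.4% GC, against a median of 49.6% over the tested genes, and Ckb sits at percentile 98.2. Slc25a3 (43.6% GC, percentile 18.9), Ckmt2 (50.5%, percentile 55.3) and Slc25a5 (48.6%, percentile 45.0) did not have these 3 libraries as their lowest. Neither did Gamt (59.7%, percentile 95.4), Slc6a8 (56.8%, percentile 86.8) and Slc25a4 (51.8%, percentile 62.1), which lie above the median GC content as Ckm, Ckb and Ak1 do. The libraries form 2 clusters by GC trend, and 3 of the 4 SFA-EAA libraries make up 1 of them, so diet and GC trend cannot be told apart for most libraries and no correlation is given.

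**Figure D4:**
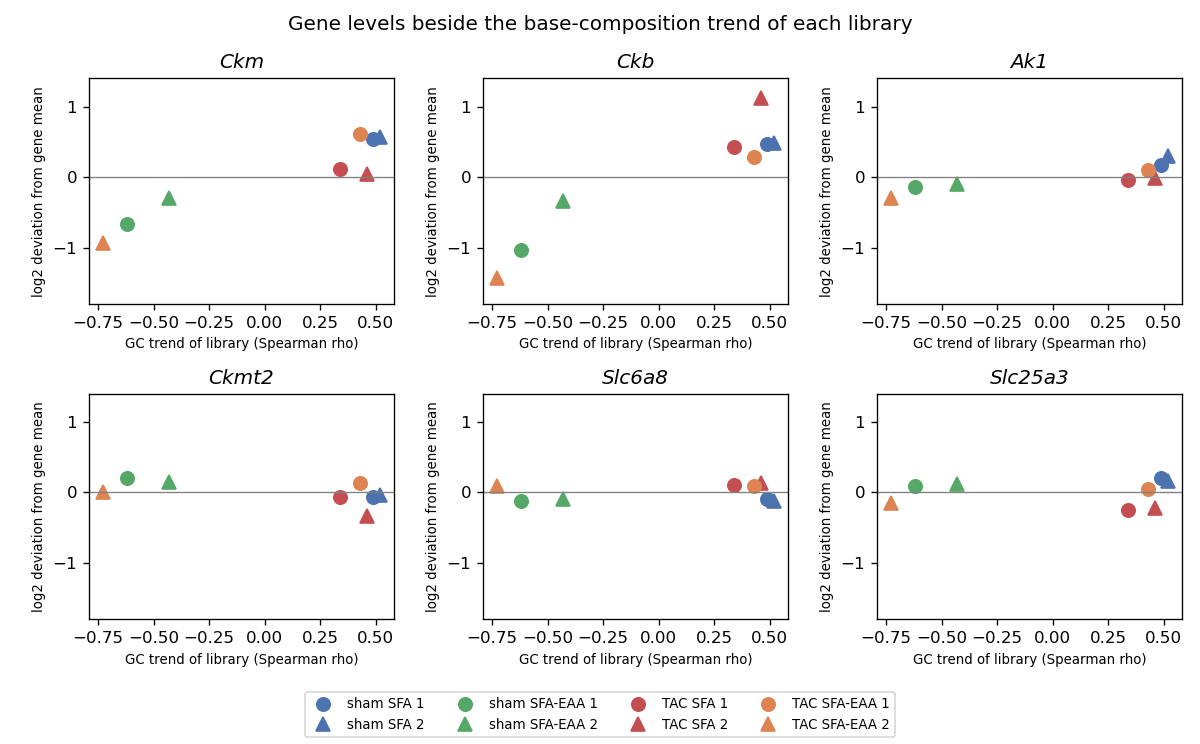
For 6 genes, the log2 value of a library minus the gene's mean over 8 libraries (vertical axis) is plotted against the GC trend of that library (horizontal axis, Spearman correlation across genes), with colour for group, circles for replicate 1 and triangles for replicate 2. For Ckm, Ckb and Ak1 the 3 libraries with negative trends lie lowest, while Slc25a3 is lowest in the 2 TAC SFA libraries.

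Genes around this system were examined in lists, by how many passed in each direction. The lists of creatine kinases (3 of 4 genes tested), creatine synthesis and transport (5 of 5), adenylate kinases (6 of 9), nucleoside diphosphate kinases (6 of 7) and mitochondrial nucleotide and phosphate carriers (10 of 10) held 0 called genes in each of the 7 comparisons by limma as deposited. The same held for anchors of creatine kinase at the myofibril (4 of 4), AMP-activated kinase (10 of 10) and breakdown and salvage of adenine nucleotides (13 of 14). Gatm, the enzyme before Gamt in creatine synthesis, had means of 1.75 ± 2.48 (SD, n = 2) in sham SFA and 7.79 ± 1.10 in TAC SFA (log2 fold change 2.04, SE 0.75, adjusted p = 0.271). Nme4, the mitochondrial nucleoside diphosphate kinase, had 30.4 ± 9.20 and 11.1 ± 4.36 (-1.39, SE 0.40, adjusted p = 0.153).

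ATP synthase, the enzyme that the translocases and the phosphate carrier serve, was the list with called genes. All 17 of its genes had negative estimates for TAC under SFA, with a median of -0.46 beside 0.01 over all genes, although none passed as deposited and 7 fell GC-corrected (5.17% of all genes passed there). Averaged over diets, Atp5l, a subunit of the membrane part, fell after TAC (log2 fold change -0.55, SE 0.10, limma adjusted p = 0.032), from 580 ± 16.5 (SD, n = 2) to 410 ± 82.4 under SFA and from 849 ± 21.3 to 565 ± 33.3 under SFA-EAA. As deposited, 2.11% of all genes passed for TAC averaged over diets. GC-corrected, 10 of the 17 fell in that comparison (6.32% of all genes passed there). As deposited, the call of Atp5l was lost (adjusted p = 0.117 to 0.176) without either sham SFA library, either sham SFA-EAA library or TAC SFA replicate 2, and kept without replicate 1 or 2 of TAC SFA-EAA (0.0118 and 0.0211).

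On SFA-EAA, averaged over operations, 3 of the 17 ATP synthase genes rose and 0 fell as deposited (1.21% of all genes passed there). Usmg5, a small membrane subunit, rose by 0.81 (SE 0.12, limma adjusted p = 0.0386), from 1860 ± 118 to 3021 ± 403 after sham (SD, n = 2). Atp5j rose by 0.55 (SE 0.10, adjusted p = 0.0481) and Atp5c1, the central stalk subunit gamma, by 0.46 (SE 0.09, adjusted p = 0.0494). GC-corrected, 6 rose (3.12% of all genes passed there). All 3 calls were kept without replicate 1 or 2 of TAC SFA-EAA and lost without any 1 of the other 6 libraries (adjusted p = 0.0692 to 0.254). The median of the 17 was 0.12 as deposited, beside -0.03 over all genes.

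Myom1, an M-band protein of the anchor list to which muscle creatine kinase binds, had means of 6913 ± 332 and 10070 ± 1547 in sham SFA and TAC SFA and of 6725 ± 116 and 8610 ± 512 in sham and TAC SFA-EAA (SD, n = 2). Averaged over diets its TAC difference was 0.45 (SE 0.10, limma adjusted p = 0.0599), or 0.41 (adjusted p = 0.00896) GC-corrected. Nt5c2, a nucleotidase of purine breakdown, had a TAC difference of 0.47 (adjusted p = 0.0548, or 0.00932 GC-corrected). Among the AMP-activated kinase genes, the regulatory subunit genes Prkab1 (-0.58, adjusted p = 0.117, or 0.00698 GC-corrected) and Prkag1 (-0.33, adjusted p = 0.128, or 0.00909 GC-corrected) had lower values after TAC, and Prkab2 under SFA had higher ones (0.71, adjusted p = 0.0936, or 0.0158 GC-corrected). The carriers Slc25a23 and Vdac3 had diet differences of -0.36 (adjusted p = 0.0707) and 0.32 (adjusted p = 0.0916), and each was 0.01 GC-corrected. All of these genes passed as deposited without replicate 1 of TAC SFA-EAA, and without replicate 2 Myom1, Nt5c2, Prkab2 and Slc25a23 did. A larger share of all genes passed there too, and these genes were named for the smallest p in their lists. With any 1 of the 8 libraries left out, the adjusted p ranged from 0.0197 to 0.287 for Myom1, from 0.00881 to 0.226 for Nt5c2, from 0.00402 to 0.357 for Prkab1, from 0.0145 to 0.395 for Prkag1, from 0.00776 to 0.472 for Prkab2, from 0.0175 to 0.254 for Slc25a23 and from 0.00363 to 0.283 for Vdac3.

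The genes closest in pattern over the 8 libraries were found by Pearson correlation of log2(value + 1) among 5617 genes with a mean of at least 100, as a description of libraries that share their GC trend. Ckm was closest to Mpst (r = 0.992, 0.966 GC-corrected), Samm50 (0.99, 0.923) and Lrrc24 (0.99, -0.308). Slc6a8 was closest to Clip1 (0.976, 0.272), Nppb (0.974, 0.236) and Bdh1 (0.96, 0.283). For Slc25a3 they were Fth1 (0.992, 0.802), Fam174b (0.986, 0.544) and Atp5a1 (0.983, 0.323), and for Slc25a4 Dgat2 (0.983, 0.922), Eif3f (0.981, 0.974) and Mrps9 (0.969, 0.397).

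Nisch (0.995, 0.97 GC-corrected) led for Ckb, Srek1ip1 (0.967, 0.755) for Ckmt2, Macrod1 (0.99, 0.755) for Ak1, Uvrag (0.963, 0.717) for Gamt and Pnn (0.899, 0.961) for Slc25a5. Among the 9 genes themselves, Ckm and Ak1 had the highest correlation as deposited (0.933, 0.471 GC-corrected) and Slc6a8 and Slc25a3 the lowest (-0.857, -0.743). GC-corrected, the highest was that of Ak1 and Slc25a4 (0.859) and the lowest that of Ckm and Slc6a8 (-0.846). As deposited, the creatine transporter lay higher and the phosphate carrier lower in all TAC than in all sham libraries. Within each group, however, the replicate with more Slc6a8 also had more Slc25a3.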

How the data were processed

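The 8 left ventricle libraries were made from polyA RNA with strand kept and read on a NextSeq instrument, per the labels' protocols. Per the submitters' processing notes, the authors used STAR 2.5 with the GRCm38 genome, and edgeR. How reads were counted per gene, on which annotation and whether by strand, is not given in the sources used here. The deposited table holds 1 normalized signal per gene and library, not whole counts, so reads behind a value are not known exactly and no count test was run.

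Values were tested as log2(value + 1) with limma-trend (limma 3.58.1, R 4.3.3), 1 mean per group and 1 spread shared by the 4 groups, over the 16432 genes that reached 1 in 2 or more libraries. Fold changes are on that scale and are too small for low genes. The two-sided p-values of each of 7 comparisons were adjusted over all genes by Benjamini-Hochberg, and 0.05 was the threshold. On simulated data for TAC under SFA, with 1 spread for all genes, the fit recovered 0 of 50 genes changed 1.5-fold. It recovered 27 of 50 at 2-fold and 50 of 50 at 4-fold. For the GC correction, a loess curve (span 0.3) of each library's deviations on transcript GC content was subtracted. Exon lengths came with the deposited values. GC content was that of the longest transcript of each gene in GENCODE M21, whose coordinates matched the table for 91.4% of 49326 genes. They did not match for Ckb. Ratios were tested by exact permutation within the other factor (Python 3.11.15, scipy 1.17.1).

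Genes named are the 9 genes, up to 4 genes per pathway list by smallest p, the 3 genes closest in pattern to each of the 9, cell type markers and overlapping or near-identical genes. Not all of these are named. The 9 genes, the lists and the tests were chosen with earlier results of these data known. Other scalings, filters, pseudocounts, library weights, single libraries left out and a replicate block were tried.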

Additional observations from a re-analysis of the deposited data

How the results depend on the processing

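As deposited, 0 of the 9 genes passed in each of the 7 comparisons, and this count stayed at 0 with another pseudocount, filter or scaling, with the GC correction and with the replicate block. The numbers do not pair the libraries (correlations of same-numbered deviations from -0.271 to 0.039), so the block is only a setting. With library weights, 1 gene passed for TAC under SFA (4.43% of all genes), 1 for diet after sham (3.6%) and 1 for diet averaged over operations (4.1%). With only the 4 libraries compared, 2 passed for TAC under SFA (5.6% of all genes) and 3 for diet after sham (6.45%). With single libraries left out, the count ranged from 0 to 1 for TAC under SFA, TAC under SFA-EAA and the difference of the TAC effects, from 0 to 2 for diet after TAC and TAC averaged over diets, and from 0 to 3 for diet after sham and diet averaged over operations. Those above 0 came from leaving out TAC SFA-EAA replicate 1 or 2. The GC correction without TAC SFA-EAA replicate 1, chosen like that without replicate 2 after the data had been seen, gave 3 genes for TAC under SFA, 2 for diet after sham, 3 for diet after TAC, 4 for TAC averaged over diets and 3 for diet averaged over operations. Without replicate 2 it gave 3 for TAC under SFA, 1 for TAC under SFA-EAA, 2 for diet after sham, 2 for diet after TAC and 1 for the difference of the TAC effects. Where a gene passed, a larger share of all genes passed than in the fit of all 8 libraries as deposited. Whether the 9 genes passed more often than all genes was not tested. In each setting where a gene passed, the share of all genes that passed stands beside the calls in the Results. Leaving out a library also removes its spread from the fit, and other causes were not tested.

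Over all 63 changes of the 9 genes (9 genes in 7 comparisons), 1147 of 1233 values under other settings kept their sign, and 31 changes turned in at least 1 setting, 27 of them with an estimate within 1 SE of 0. For 33 of these changes, most of them printed above, 636 of 651 values kept their sign. The Slc25a5 to Slc25a4 diet ratio was 0.011 with quantile normalization and -0.191 to 0.027 with single libraries left out, and the Ckmt2 to Ckm TAC ratio -0.401 to 0.305. For TAC under SFA, single libraries left out gave -0.06 to 0.641 for Ckb, -0.01 to 0.284 for Gamt and -0.111 to 0.252 for Slc25a5. Ckm ranged from -0.452 to 1.089 for TAC under SFA-EAA and from -1.007 to 0.534 for diet after TAC. GC-corrected without TAC SFA-EAA replicate 1, Ckm for TAC under SFA-EAA was -0.351, Slc25a3 for diet after TAC -0.173, and for diet averaged over operations Slc6a8 0.52, Slc25a23 0.164 and Vdac3 -0.021. Without replicate 2, Slc6a8 and Slc25a3 for TAC under SFA-EAA were -0.176 and 0.138, Ckm for diet after TAC 0.598 and Slc6a8 for diet averaged over operations 0.25. That last difference was 0.015 by median-of-ratios scaling, 0.008 when scaled without mitochondrial genes and 0.385 with the GC correction alone, which also turned Slc25a23 to 0.011.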
